A study of Mus musculus with 4 samples.

Results

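The 38 genes described here encode the machinery by which synaptic vesicles are primed, docked and fused at the nerve terminal. They are 10 synaptotagmins, 3 complexins, and the SNARE proteins Snap25, Stx1a, Vamp1 and Vamp2 with their disassembly factors Nsf and Napa. The vesicle proteins are Syp, Sv2a, Sv2b, Sv2c, Syn1, Syn2 and Syn3, and the active zone proteins Unc13a, Unc13c, Rims1, Rims2, Rims3, Bsn and Pclo. The rest are the Rab3 group with its effector Rph3a, and the calcium sensor Doc2b. All 38 genes were chosen by name from the 28000 genes in the data. Levels are counts of UMIs (unique molecular identifiers, 1 per captured transcript). The question was how far their levels differ among the subtypes of somatostatin (SST) interneurons of primary somatosensory cortex, between sorts, and between ages.

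Cells came from triple transgenic mice on a CD1(ICR) background that carried Sst-IRES-Cre, a Cre-dependent tdTomato reporter at Rosa26 (Ai9) and the X94 transgene, in which a Gad1 promoter drives GFP in part of the SST cells. The P97 GFP+/tdTomato+ library and the P97 tdTomato+ library, sorted irrespective of GFP, came from the same dissociated cells of 6 pooled mice aged 97 days. The other 2 libraries were tdTomato+ sorts at 45 days of age (P45), each from its own batch of animals. All mice carried the same 3 transgenes, each library pooled mice, and every p-value measures the spread between these pooled libraries. Barcodes with at least 2000 UMIs and at least 3 Sst UMIs were taken as SST cells, which left 211 GFP+ barcodes at P97, 573 from the tdTomato+ sort at P97, and 668 and 646 at P45, at medians of 5157.5 to 15222 UMIs per barcode and library totals of 3410049 to 5693022 UMIs. Gad1, Gad2, Slc32a1 and Lhx6 were present in each library, the astrocyte, microglia and endothelial markers were at or near 0, and Mbp, which marks oligodendrocytes, was at 20.7 CPM (UMIs of the gene per 1000000 UMIs) in the GFP+ library and 96.2 to 119 CPM in the tdTomato+ libraries. Libraries shared 0 to 2 barcodes per pair.

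Groups were formed from 7 marker genes: Hpse (heparanase), Calb2 (calretinin, found in Martinotti cells), Pvalb, Crh, Th, Nos1 and Myh13. A tdTomato+ SST barcode entered a group where it had a UMI of exactly 1 of them, which gave 70 Hpse+, 107 Calb2+, 280 Pvalb+, 90 Crh+, 23 Th+, 118 Nos1+ and 111 Myh13+ barcodes. Another 600 had none, and the 488 with several were left out. Of 217 Hpse-positive barcodes 115 also had a Pvalb UMI, so the Hpse+ group holds only the part without one. Of 281 Calb2-positive barcodes 109 also had a Nos1 UMI and were left out likewise. Hpse+ cells carried Pdyn and Npnt, Crh+ cells Tac2, Th+ cells Nts, Nos1+ cells Chodl and Tacr1, and Myh13+ cells Myh4. Maf and Olfm3, taken as partners of Calb2, were high in both Calb2+ and Hpse+ cells, and Erbb4, taken as a partner of Pvalb, had 523 and 381 CPM in Th+ and 64.7, 120 and 88.8 CPM in Pvalb+ cells, so these groups go by their marker alone. A Nos1 UMI was also found in 15.4% of glutamatergic barcodes, against 19.1% of SST barcodes, at median depths of 6636.5 to 9999 UMIs in the glutamatergic and 5157.5 to 7583 UMIs in the SST barcodes, and the part of free RNA in the Nos1+ group was not tested. No P97 SST barcode had a Th UMI, so Th+ values rest on the 2 P45 libraries.

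In a nerve terminal, vesicles filled with transmitter are tethered at the active zone by Rim, Bassoon and Piccolo, and Munc13 proteins prime them by opening syntaxin. Synaptobrevin (Vamp) on the vesicle then zips with syntaxin 1 and SNAP-25 on the plasma membrane, complexin holds the partly zipped complex, and calcium binding to synaptotagmin triggers fusion. Which synaptotagmin, complexin and Munc13 a neuron uses sets how fast, how synchronously and with what short-term plasticity it releases. SST interneurons release GABA onto dendrites, and Martinotti and non-Martinotti subtypes differ in their targets.

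Promoter windows for the release genes come from RefSeq (GRCm38.p6), where 29 of the 38 genes have one, from 250 bases before to 50 after the transcription start. Shown are those of 3 genes that were higher in Pvalb+ cells (Syt2, Vamp1 and Cplx1), of Unc13c, and of Syt10, among the marker groups highest in Th+ cells. They were picked after their levels were known. They lie at chr1:134646362-134646661 on the plus strand, chr6:125215331-125215630 on the plus strand, chr5:108549978-108550277 on the minus strand, chr9:73968988-73969287 on the minus strand and chr15:89841811-89842110 on the minus strand. Capitals mark E-boxes (CANNTG), GC boxes (GGGCGG) and TGACG, found in cAMP response elements, on either strand, none of which overlap here.
Syt2: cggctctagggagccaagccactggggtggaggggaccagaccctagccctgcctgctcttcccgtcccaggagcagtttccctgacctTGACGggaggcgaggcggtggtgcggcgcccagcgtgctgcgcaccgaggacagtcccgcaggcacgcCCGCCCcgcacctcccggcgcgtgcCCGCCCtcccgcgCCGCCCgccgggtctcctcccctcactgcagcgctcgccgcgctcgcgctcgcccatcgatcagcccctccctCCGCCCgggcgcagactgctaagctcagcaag
Vamp1: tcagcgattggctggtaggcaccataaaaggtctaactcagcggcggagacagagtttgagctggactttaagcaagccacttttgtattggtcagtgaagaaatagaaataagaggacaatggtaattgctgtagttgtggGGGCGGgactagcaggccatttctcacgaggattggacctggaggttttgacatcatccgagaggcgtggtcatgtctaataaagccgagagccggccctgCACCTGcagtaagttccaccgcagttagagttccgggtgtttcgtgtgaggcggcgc
Cplx1: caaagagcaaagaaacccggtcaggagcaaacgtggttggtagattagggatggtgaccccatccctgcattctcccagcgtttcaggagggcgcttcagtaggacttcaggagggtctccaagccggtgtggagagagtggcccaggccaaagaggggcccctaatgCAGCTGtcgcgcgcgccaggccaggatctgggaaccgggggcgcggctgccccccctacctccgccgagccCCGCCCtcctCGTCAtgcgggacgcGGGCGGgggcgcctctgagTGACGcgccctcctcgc
Unc13c: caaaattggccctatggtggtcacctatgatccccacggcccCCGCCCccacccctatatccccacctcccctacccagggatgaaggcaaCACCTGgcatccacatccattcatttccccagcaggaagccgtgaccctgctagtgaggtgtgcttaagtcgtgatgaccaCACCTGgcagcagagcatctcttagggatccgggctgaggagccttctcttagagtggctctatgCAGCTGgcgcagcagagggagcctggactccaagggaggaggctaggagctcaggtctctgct
Syt10: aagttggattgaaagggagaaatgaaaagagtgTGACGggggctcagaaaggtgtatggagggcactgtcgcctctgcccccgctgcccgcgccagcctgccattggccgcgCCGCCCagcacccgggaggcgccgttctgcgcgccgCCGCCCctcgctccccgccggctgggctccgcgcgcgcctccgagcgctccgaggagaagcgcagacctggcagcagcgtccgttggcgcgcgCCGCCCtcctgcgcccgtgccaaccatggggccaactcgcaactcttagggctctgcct

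The Syt2 window held 4 GC boxes, 1 TGACG and no E-box, at 74.3% G and C. The Syt10 window was similar, with 3 GC boxes and 1 TGACG. The Unc13c window held 3 E-boxes and 1 GC box, the Vamp1 window 1 and 1, and the Cplx1 window 1 and 2 with 2 TGACG. Of the 32851 promoter windows of the same length, 72.3% held an E-box, 35.7% a GC box and 20.8% a TGACG. A GC box was in all 5 windows, and in 27 of the 40 windows that the table holds for the release genes. The RefSeq window of Cplx2 lies 68793 bases upstream of the start of the gene in the GENCODE vM21 annotation and is not shown.

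Summed, the 38 genes made up a similar share of the RNA of SST cells in every library, 1.74% of UMIs in the P97 GFP+ library and 1.73%, 1.84% and 1.87% in the P97 and both P45 tdTomato+ libraries. Of the 38 members, 33 passed the filter on low counts in the fit of marker groups, and Syt9, Cplx3, Syn3, Sv2b and Sv2c did not. Each group was compared with the mean of the other 6 by edgeR's quasi-likelihood test with Benjamini-Hochberg adjustment over 6624 genes, where a call is an adjusted p under 0.05. In Hpse+ cells 6 members were higher, against a background of 4.29% of the genes tested, and 4 lower, against 2.26%. In Calb2+ cells 3 members were higher, against a background of 3.16% of the genes tested, and 0 lower, against 1.34%, and in Pvalb+ cells 5 members were higher, against a background of 7.16% of the genes tested, and 4 lower, against 3.88%. In Crh+ cells 3 members were higher, against a background of 4.08% of the genes tested, and 0 lower, against 1.75%. In Th+ cells 5 members were higher, against a background of 4.26% of the genes tested, and 5 lower, against 3.55%. In Nos1+ cells 4 members were higher, against a background of 4.76% of the genes tested, and 2 lower, against 0.936%, and in Myh13+ cells 8 members were higher, against a background of 5.39% of the genes tested, and 4 lower, against 3.29%. With Th+ left out of the mean of the others, a choice made after seeing the data, 10 members were called in Crh+ cells, where 6.78% of all genes were. Without the second P45 library the members called numbered 6 in Hpse+ and 6 in Myh13+ cells, against 3.74% and 5.06% of all genes tested. Th+ is then a single sum with no spread of its own. The median log2 fold change over the members tested lay between -0.09 and 0.08 over the 7 comparisons, and between -0.06 and 0.04 over all genes tested.

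Levels of 21 tested members were called in at least 1 of the 7 comparisons, against 26.5% of all genes tested, and 12 in none. The vesicle protein Syp had group means between 1295 and 1509 CPM. The vesicle SNARE Vamp2 lay between 1231 and 1584 CPM and Syt11, a synaptotagmin that does not bind calcium, between 1019.8 and 1137 CPM. Sv2a, Syn1, Syt7, Nsf, Napa, Rims1, Rims2, Rab3b and Bsn were likewise not called.

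**Figure D1:**
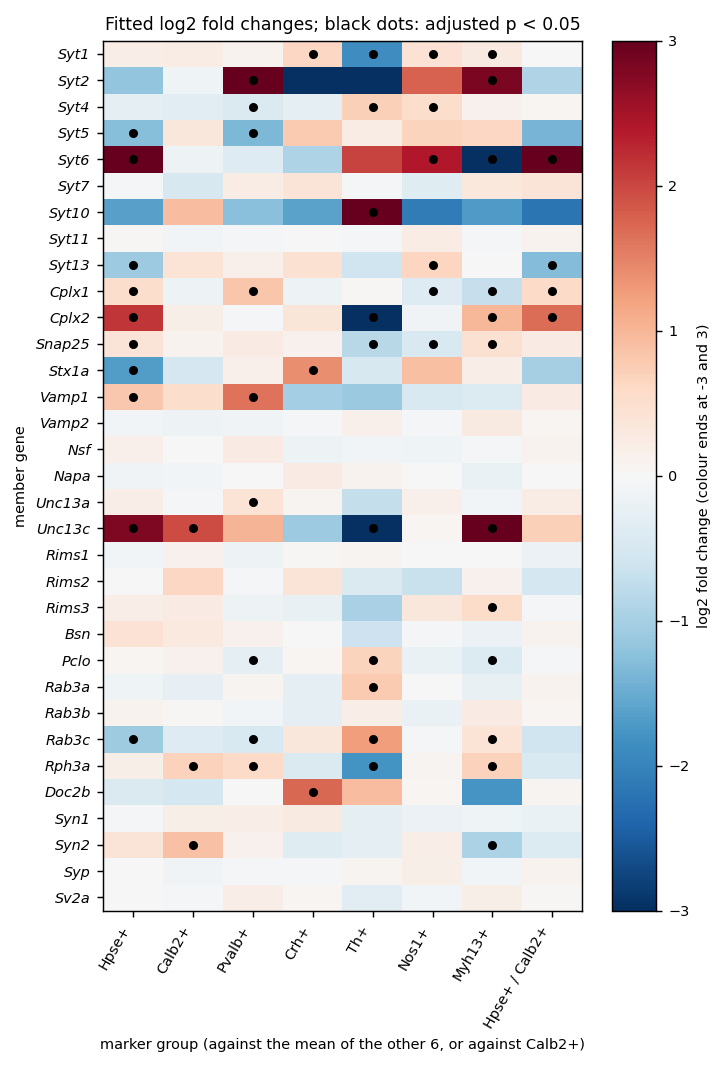
Fitted log2 fold changes of the 33 tested genes, by role from top to bottom, for each marker group against the mean of the other 6 and for Hpse+ against Calb2+ cells (columns). Colour runs from blue (lower) to red (higher) and ends at -3 and 3, and black dots mark an adjusted p under 0.05. Rows of Syp, Vamp2, Syt11 and Sv2a are pale throughout, while Syt6, Syt10, Unc13c, Cplx2 and Syt2 hold the strongest colours.

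Values over libraries are given below in CPM of the group's own UMIs, in the order P97, first P45 and second P45 library (Th+: first and second P45). The value for the other groups in a library is the mean of their levels with Th+ left out, except where Th+ itself is compared, and group levels are mean ± SD over 3 libraries (Th+: 2). Fold changes are log2 with their standard error. A fold that involves a group without a UMI depends on the small count that edgeR adds and is no bound. The mean of the other groups holds Th+ cells, which lack several of these transcripts, so that values with Th+ left out of the mean, as above, are given beside the calls that this ended or added.

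Complexins bind the assembled SNARE complex, clamp it and speed its calcium-triggered fusion. Cplx2 (chr13:54371349-54383917, plus strand) was highest in Hpse+ and lowest in Th+ cells. Hpse+ cells had 1417, 1638 and 1675 CPM, against 491, 517 and 602 CPM in the other groups. Each Hpse+ value lay above each value of any other group (log2 fold change 2.14 ± 0.11, adjusted p = 1.04e-23, edgeR's quasi-likelihood test). Myh13+ cells came next with 760.1, 710.1 and 964 CPM (log2 fold change 0.99 ± 0.13, adjusted p = 2.06e-08). Th+ cells had 39.2 and 76.2 CPM, against 704 and 781 CPM in the other groups of the same libraries (log2 fold change -3.50 ± 0.35, adjusted p = 3.44e-12). Group levels were 1577 ± 139 in Hpse+, 491 ± 58.5 in Calb2+, 445 ± 89.4 in Pvalb+, 551 ± 104 in Crh+, 57.7 ± 26.2 in Th+, 386 ± 27.9 in Nos1+ and 812 ± 135 in Myh13+, and Pvalb+ values overlapped those of Calb2+, Crh+ and Nos1+ cells. With Th+ left out of the mean, Hpse+ cells stayed higher at 1.60 (adjusted p = 3.43e-20) and Myh13+ cells at 0.42 (adjusted p = 0.00718), while Calb2+, Pvalb+ and Nos1+ cells became lower, at -0.42 (adjusted p = 0.0356), -0.65 (adjusted p = 1.91e-06) and -0.71 (adjusted p = 1.22e-05).

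Cplx1 (chr5:108518554-108550024, minus strand), the second common complexin, had another order. Pvalb+ cells had 1874, 1521 and 1541 CPM, against 976, 878 and 912 CPM in the other groups (log2 fold change 0.82 ± 0.09, adjusted p = 1.05e-10). Hpse+ cells had 1441, 1344 and 1287 CPM (log2 fold change 0.53 ± 0.10, adjusted p = 1.81e-04), so that they stood high for both complexins. Cplx1 was lower in Myh13+ cells, with 798, 599.95 and 608 CPM (log2 fold change -0.69 ± 0.12, adjusted p = 9.65e-06), and in Nos1+ cells, with 940.2, 567 and 763 CPM (log2 fold change -0.39 ± 0.11, adjusted p = 0.0172), where the call did not hold without the first or the second P45 library (adjusted p = 0.402 and 0.0724). Group levels were 1357 ± 78.03 in Hpse+, 898 ± 33.4 in Calb2+, 1645 ± 198 in Pvalb+, 929.7 ± 76.4 in Crh+, 932 ± 61.5 in Th+, 757 ± 187 in Nos1+ and 669 ± 112 in Myh13+. Pvalb+ and Hpse+ values did not overlap those of any other group or each other, whereas Calb2+, Crh+ and Th+ values overlapped. Cplx3, best known from retinal ribbon synapses, had at most 10.3 CPM in any group of a library and was at 0 in 5 of the 7 groups.

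Synaptotagmins are the calcium sensors of release, and Syt1 (chr10:108497650-109010982, minus strand) is the fast sensor of most forebrain synapses. Th+ cells had 797 and 839 CPM, against 3022 and 3096 CPM in the other groups of the same libraries (log2 fold change -1.86 ± 0.16, adjusted p = 2.15e-14), below every value of any other group. Crh+ cells had 3539.8, 3305 and 3864 CPM, against 2477, 2966 and 2943 CPM (log2 fold change 0.62 ± 0.09, adjusted p = 4.55e-07), above every other group. Group levels were 2724 ± 194 in Hpse+, 2774 ± 343 in Calb2+, 2618 ± 263 in Pvalb+, 3569.6 ± 281 in Crh+, 818 ± 29.1 in Th+, 2954 ± 292 in Nos1+ and 2907 ± 416 in Myh13+. Syt1 was also called higher in Nos1+ cells (log2 fold change 0.44 ± 0.09, adjusted p = 3.91e-04) and Myh13+ cells (log2 fold change 0.28 ± 0.09, adjusted p = 0.0488), where values were 2621, 3077 and 3165 CPM and 2468, 2957 and 3295 CPM. Neither call held with Th+ left out of the mean, at 0.14 (adjusted p = 0.466) and -0.03 (adjusted p = 0.904), and the Myh13+ difference then changed sign. The Myh13+ call was also lost without any 1 library. Without Th+ the Crh+ difference was 0.32 (adjusted p = 0.0168).

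Syt2 (chr1:134646677-134762593, plus strand), the fast sensor of fast-spiking Pvalb interneurons and of brainstem synapses, was highest in Pvalb+ cells. These had 168, 58.8 and 34.3 CPM, against 13.4, 12.7 and 2.98 CPM in the other groups (log2 fold change 4.87 ± 0.40, adjusted p = 2.69e-14). Group levels were 1.99 ± 3.44 in Hpse+, 4.49 ± 5.002 in Calb2+, 86.9 ± 71.1 in Pvalb+, 14.9 ± 17.7 in Nos1+ and 27.2 ± 24.4 in Myh13+, and Crh+ and Th+ cells had no UMI. A count of 0 allows up to 3 UMIs, so the mean of the other groups, 22.6 CPM, was at least 4.56-fold that of Crh+ cells. Most of that mean came from Pvalb+ cells. The limit for Crh+ cells, 4.94 CPM, lay above the Hpse+ and Calb2+ means, so Crh+ cells cannot be told apart from these groups. The Crh+ difference was called with Th+ left out of the mean (adjusted p = 0.047, edgeR). Myh13+ cells had 16.1, 55.1 and 10.3 CPM (log2 fold change 2.83 ± 0.79, adjusted p = 0.01302), a call that did not hold without the first P45 library (log2 fold change 1.58, adjusted p = 0.51) or the second (adjusted p = 0.0537), and over all Myh13-positive barcodes against all other SST barcodes it was -0.22 (adjusted p = 0.876). Pvalb+ cells had the highest value within each library, though over libraries their values overlapped those of Myh13+ and Nos1+ cells.

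Syt6 (chr3:103575231-103645569, plus strand), a synaptotagmin known from acrosome exocytosis in sperm, was high in Hpse+ cells, with 131, 97.9 and 102 CPM, against 19.6, 21.6 and 15.5 CPM in the other groups (log2 fold change 3.43 ± 0.40, adjusted p = 1.41e-09). Nos1+ cells followed with 52.9, 59.1 and 59.4 CPM (log2 fold change 2.41 ± 0.43, adjusted p = 4.35e-05), a call that was lost over all Nos1-positive barcodes, where the log2 fold change was 0.06 (adjusted p = 0.954). Th+ cells had 39.2 and 60.98 CPM. Myh13+ cells had no Syt6 UMI in any of the 3 libraries, so the mean of the other groups was at least 7.71-fold higher (adjusted p = 7.69e-04, edgeR). Group levels were 110.4 ± 18.02 in Hpse+, 16.2 ± 12.7 in Calb2+, 11.96 ± 6.41 in Pvalb+, 9.33 ± 5.76 in Crh+, 50.1 ± 15.4 in Th+ and 57.1 ± 3.66 in Nos1+. Hpse+ values stood clear of every other group, and Calb2+, Pvalb+ and Crh+ values overlapped.

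Syt10 (chr15:89782393-89841860, minus strand), which in olfactory bulb neurons triggers release of insulin-like growth factor 1, was highest in Th+ cells among the marker groups. These had 118 and 76.2 CPM, against 0.596 and 0 CPM in the other groups of the same libraries (log2 fold change 7.33 ± 1.17, adjusted p = 6.69e-06). Hpse+, Pvalb+, Crh+, Nos1+ and Myh13+ cells had no UMI in any library, and Calb2+ cells reached 3.58 CPM in 1. For Pvalb+ cells, the deepest group, the mean of the others with Th+ was at least 13.2-fold higher, which restates the Th+ level. Without Th+ no bound can be given, so Pvalb+ cells cannot be told apart from the remaining groups. Of the 28 Syt10 UMIs in tdTomato+ SST barcodes, 14 were in Th+ cells and 10 in barcodes with none of the 7 markers.

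Syt5 (chr7:4539765-4547541, minus strand), a calcium-binding synaptotagmin, was low in Pvalb+ and Hpse+ cells. Pvalb+ cells had 20.01, 14.7 and 29.6 CPM, against 55.2, 61.9 and 68.4 CPM in the other groups (log2 fold change -1.35 ± 0.24, adjusted p = 1.85e-05), and Hpse+ cells 17.9, 44.5 and 16.3 CPM, against 55.6, 55.9 and 71.01 CPM (log2 fold change -1.28 ± 0.37, adjusted p = 0.0219). Group levels were 26.2 ± 15.8 in Hpse+, 62.4 ± 17.6 in Calb2+, 21.4 ± 7.56 in Pvalb+, 77.99 ± 13.7 in Crh+, 55.5 ± 13.9 in Th+, 70.3 ± 7.84 in Nos1+ and 72.2 ± 16.7 in Myh13+, so that Hpse+ and Pvalb+ cells overlapped each other, and Hpse+ cells came near the lowest Calb2+ and Th+ values. Syt13 (chr2:92915098-92956058, plus strand), an atypical member that does not bind calcium, was lower in Hpse+ cells, with 95.3, 116 and 65.4 CPM, against 249.6, 184 and 189 CPM (log2 fold change -1.10 ± 0.21, adjusted p = 1.66e-04). In Nos1+ cells it was higher, with 306, 191 and 219 CPM, against 208, 168 and 158 CPM (log2 fold change 0.65 ± 0.15, adjusted p = 0.001896). Its group levels were 92.1 ± 25.3 in Hpse+, 214 ± 21.6 in Calb2+, 188 ± 26.4 in Pvalb+, 226 ± 34.7 in Crh+, 109 ± 61.6 in Th+, 239 ± 59.5 in Nos1+ and 171 ± 51.4 in Myh13+. Hpse+ values of Syt13 overlapped those of Th+ cells alone. The Syt5 and Syt13 calls in Hpse+ cells did not hold without the second P45 library, at adjusted p of 0.496 and 0.141, and that of Syt5 did not hold without the P97 library either (adjusted p = 0.126). With Th+ left out of the mean, Syt5 was called higher in Crh+ and Nos1+ cells, at 0.84 (adjusted p = 0.0254) and 0.72 (adjusted p = 0.0486).

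Syt4, an activity-regulated synaptotagmin of dense-core vesicles, was higher in Th+ cells, with 614 and 412 CPM, against 367 and 287 CPM in the other groups of the same libraries (log2 fold change 0.71 ± 0.19, adjusted p = 0.00958), and in Nos1+ cells, with 476, 479.8 and 402 CPM (log2 fold change 0.52 ± 0.11, adjusted p = 7.57e-04). It was lower in Pvalb+ cells, with 299, 327 and 209 CPM (log2 fold change -0.44 ± 0.10, adjusted p = 0.00135). These values overlapped those of several groups. Without the first or the second P45 library the Th+ difference, from 1 Th+ sum, was 0.54 and 0.82. Syt7, the sensor tied to asynchronous release and facilitation, was called in no group, with means of 149 to 253 CPM, and Syt9 had at most 8.902 CPM in any group.

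**Figure D2:**
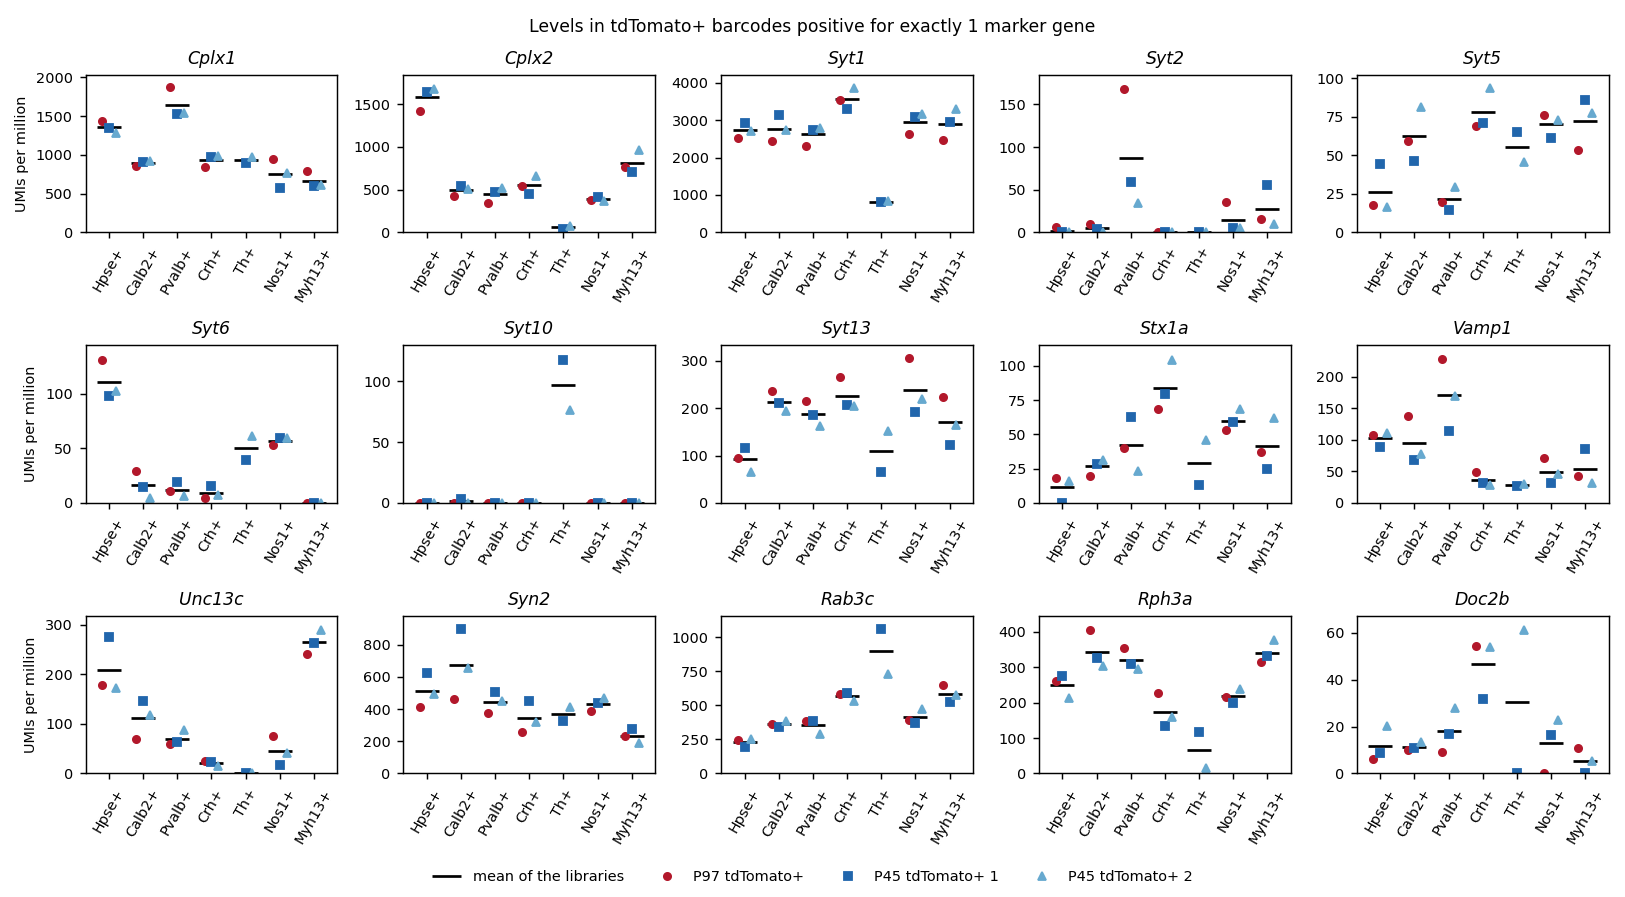
Levels of 15 release genes in CPM (vertical axes from 0) for the 7 marker groups, 1 point per tdTomato+ library and a line at their mean. The Hpse+ points of Cplx2 (1417 to 1675) and Syt6 (97.9 to 131) sit above all others, Th+ points of Syt1 and Cplx2 sit below all others, and Pvalb+ points are highest for Cplx1.

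Among the SNARE proteins, Vamp1 (chr6:125215551-125245964, plus strand), a synaptobrevin abundant in spinal cord and brainstem, was highest in the same group as Cplx1. Pvalb+ cells had 228, 113 and 169.8 CPM, against 81.6, 61.03 and 58.5 CPM in the other groups (log2 fold change 1.64 ± 0.16, adjusted p = 5.60e-12). Hpse+ cells had 107, 89.02 and 110.3 CPM, against 106, 65.9 and 70.4 CPM (log2 fold change 0.82 ± 0.26, adjusted p = 0.0464), and this call was lost when any 1 library was left out, or Th+ left out of the mean (0.65, adjusted p = 0.13). Group levels were 102 ± 11.5 in Hpse+, 94.4 ± 38.3 in Calb2+, 170.3 ± 57.3 in Pvalb+, 36.6 ± 11.04 in Crh+, 28.3 ± 3.08 in Th+, 48.97 ± 20.1 in Nos1+ and 53.2 ± 28.8 in Myh13+, and Calb2+ and Hpse+ cells overlapped. Pvalb+ cells had the highest value within each library, and with Th+ left out of the mean Crh+ cells were lower at -1.23 (adjusted p = 0.00388).

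Stx1a (chr5:135023482-135051100, plus strand), 1 of the neuronal syntaxins on the plasma membrane, was high in Crh+ cells, with 68.9, 79.3 and 105 CPM, against 33.6, 35.03 and 40.3 CPM in the other groups (log2 fold change 1.40 ± 0.29, adjusted p = 5.10e-04). It was low in Hpse+ cells, with 17.9, 0 and 16.3 CPM, against 43.8, 50.9 and 57.98 CPM (log2 fold change -1.67 ± 0.51, adjusted p = 0.0303). The Crh+ values lay above those of every other group, while the Hpse+ call was lost when any 1 library was left out. Group levels were 11.4 ± 9.904 in Hpse+, 26.7 ± 6.17 in Calb2+, 42.1 ± 19.9 in Pvalb+, 84.2 ± 18.3 in Crh+, 29.4 ± 23.1 in Th+, 60.2 ± 7.86 in Nos1+ and 41.3 ± 18.99 in Myh13+.

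Snap25, the plasma membrane SNARE that carries a pair of SNARE helices, differed by less than 1 on the log2 scale in each group. It was lower in Th+ cells, with 1333 and 2073 CPM, against 2956 and 3343 CPM in the other groups of the same libraries (log2 fold change -0.83 ± 0.14, adjusted p = 1.62e-05), and in Nos1+ cells, with 1698, 1626 and 2416 CPM, against 2699, 3222 and 3528 CPM (log2 fold change -0.46 ± 0.10, adjusted p = 8.59e-04). It was higher in Myh13+ cells, with 3179.8, 3624 and 3811 CPM, against 2403, 2822 and 3249 CPM (log2 fold change 0.46 ± 0.09, adjusted p = 2.40e-04), and in Hpse+ cells, with 2698, 3801 and 3485 CPM, against 2499, 2787 and 3315 CPM (log2 fold change 0.38 ± 0.10, adjusted p = 0.00517). The Hpse+ and Myh13+ values overlapped those of 4 other groups each. The Hpse+ call did not hold without the first P45 library (0.23, adjusted p = 0.195) or with Th+ left out of the mean (0.25, adjusted p = 0.146).

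Munc13 proteins prime docked vesicles, and Unc13c (Munc13-3, chr9:73479422-73968966, minus strand), best known from cerebellar granule cells, differed between groups. Myh13+ cells had 241, 263 and 289 CPM, against 81.8, 105 and 86.4 CPM in the other groups (log2 fold change 3.27 ± 0.29, adjusted p = 5.81e-14), and Hpse+ cells 179, 276 and 172 CPM, against 94.2, 103 and 109.8 CPM (log2 fold change 2.80 ± 0.33, adjusted p = 2.51e-09). These values overlapped each other and no other group. Th+ cells had no Unc13c UMI in either P45 library, so the mean of the other groups, 119.97 CPM, was at least 5.68-fold higher (adjusted p = 0.001501, edgeR). Calb2+ cells had 69.2, 147 and 117 CPM, against 116, 128 and 121 CPM (log2 fold change 1.97 ± 0.42, adjusted p = 8.90e-04), below the other groups in 2 of 3 libraries, and this call was lost without the first P45 library (adjusted p = 0.182). Group levels were 209 ± 58.3 in Hpse+, 111 ± 39.1 in Calb2+, 70.1 ± 14.9 in Pvalb+, 20.9 ± 5.66 in Crh+, 44.7 ± 30.1 in Nos1+ and 264 ± 23.96 in Myh13+. With Th+ left out, Myh13+ cells were higher at 1.99 (adjusted p = 1.91e-12) and Hpse+ cells at 1.51 (adjusted p = 3.15e-07), Calb2+ cells were not called at 0.64 (adjusted p = 0.137), and Crh+ and Nos1+ cells were lower at -2.50 (adjusted p = 1.39e-07) and -1.31 (adjusted p = 0.00105).

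Unc13a (Munc13-1), the main priming factor of cortical synapses, was higher in Pvalb+ cells, with 189, 197 and 140.2 CPM, against 157, 136 and 119 CPM in the other groups (log2 fold change 0.42 ± 0.13, adjusted p = 0.0313), a call lost without any 1 library and with Th+ left out of the mean (0.31, adjusted p = 0.0951). Rims3, a short Rim of the active zone, was higher in Myh13+ cells, with 230.2, 282 and 248 CPM, against 196, 186 and 182 CPM (log2 fold change 0.56 ± 0.16, adjusted p = 0.01402), and this did not hold without the first or the second P45 library or with Th+ left out (0.41, adjusted p = 0.0854). With Th+ left out, Rims3 was lower in Pvalb+ cells at -0.33 (adjusted p = 0.0423). Pclo (Piccolo) was higher in Th+ cells, with 601 and 732 CPM, against 468 and 405 CPM in the other groups of the same libraries (log2 fold change 0.66 ± 0.18, adjusted p = 0.00983). Without the second P45 library Pclo differed by 0.45 in Th+ cells, from 1 sum. It was lower in Myh13+ cells, with 305, 404 and 346 CPM (log2 fold change -0.40 ± 0.13, adjusted p = 0.039), and in Pvalb+ cells, with 366, 409 and 332 CPM (log2 fold change -0.30 ± 0.10, adjusted p = 0.0376), both lost without any 1 library and with Th+ left out of the mean, at -0.30 (adjusted p = 0.176) and -0.20 (adjusted p = 0.22).

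Rab3 proteins are the small GTPases of synaptic vesicles. Rab3c (chr13:110054187-110280996, minus strand) was lower in Hpse+ cells, with 244, 196 and 253 CPM, against 475, 442 and 451 CPM in the other groups (log2 fold change -1.08 ± 0.15, adjusted p = 8.47e-08), below every value of any other group. It was highest in Th+ cells, with 1059 and 732 CPM, against 401 and 418 CPM in the other groups of the same libraries (log2 fold change 1.24 ± 0.17, adjusted p = 7.48e-08). Myh13+ cells were higher, with 648, 526 and 578 CPM (log2 fold change 0.40 ± 0.12, adjusted p = 0.0185), and Pvalb+ cells lower, with 384, 386 and 288 CPM (log2 fold change -0.46 ± 0.10, adjusted p = 0.00114). The Myh13+ call did not hold without the P97 or the second P45 library (adjusted p = 0.235 and 0.139), nor the Pvalb+ call without the second P45 library (adjusted p = 0.0725) or with Th+ left out of the mean (-0.26, adjusted p = 0.108). Crh+ cells were then higher, at 0.55 (adjusted p = 6.70e-04). Group levels were 231 ± 30.9 in Hpse+, 363 ± 22.1 in Calb2+, 353 ± 55.9 in Pvalb+, 569 ± 30.4 in Crh+, 895 ± 231 in Th+, 411 ± 52.97 in Nos1+ and 584 ± 60.9 in Myh13+. Rab3a, the main Rab3 of most synapses, was higher in Th+ cells, with 1124 and 1464 CPM, against 779.8 and 736 CPM (log2 fold change 0.79 ± 0.15, adjusted p = 1.45e-04). Without the second P45 library this difference was 0.58, from 1 Th+ sum. Rab3b was called in no group, and its group levels were 509.996 ± 68.97 in Hpse+, 499 ± 47.95 in Calb2+, 461 ± 7.33 in Pvalb+, 415 ± 46.7 in Crh+, 524 ± 56.9 in Th+, 398 ± 31.3 in Nos1+ and 555 ± 68.03 in Myh13+.

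Rph3a (rabphilin, chr5:120940499-121010092, minus strand), which binds Rab3 and SNAP-25, was lower in Th+ cells, with 118 and 15.2 CPM, against 263 and 264 CPM in the other groups of the same libraries (log2 fold change -1.80 ± 0.39, adjusted p = 6.65e-04). Without the second P45 library this was -1.04, from 1 Th+ sum, and the Myh13+ difference given next was not called (adjusted p = 0.215). Calb2+ cells had 405, 326 and 303 CPM (log2 fold change 0.70 ± 0.15, adjusted p = 0.001302), Myh13+ cells 316, 331 and 376 CPM (log2 fold change 0.70 ± 0.15, adjusted p = 9.13e-04) and Pvalb+ cells 355, 311 and 294 CPM (log2 fold change 0.58 ± 0.12, adjusted p = 3.75e-04). These 3 groups overlapped each other, and none was called with Th+ left out of the mean, at adjusted p of 0.0982, 0.0552 and 0.0662. Crh+ cells were then lower, at -0.75 (adjusted p = 6.30e-04). Group levels were 250.1 ± 33.4 in Hpse+, 344 ± 53.8 in Calb2+, 319.9 ± 31.3 in Pvalb+, 173 ± 47.6 in Crh+, 66.4 ± 72.4 in Th+, 218 ± 19.5 in Nos1+ and 341 ± 31.6 in Myh13+. Doc2b (chr11:75768966-75796049, minus strand), a high-affinity calcium sensor tied to spontaneous and asynchronous release, was higher in Crh+ cells, with 54.2, 31.7 and 54.1 CPM, against 7.16, 10.6 and 18 CPM (log2 fold change 1.73 ± 0.45, adjusted p = 0.00842). Its levels were low, at 11.8 ± 7.65 in Hpse+, 11.4 ± 1.92 in Calb2+, 18.02 ± 9.46 in Pvalb+, 46.6 ± 12.9 in Crh+, 30.5 ± 43.1 in Th+, 13.1 ± 11.8 in Nos1+ and 5.29 ± 5.35 in Myh13+, and the call did not hold without the P97 or the second P45 library.

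Of the vesicle proteins, Syn2 (synapsin 2), which ties vesicles to the reserve pool, was higher in Calb2+ cells, with 464, 898 and 655 CPM, against 334, 458 and 384 CPM in the other groups (log2 fold change 0.87 ± 0.11, adjusted p = 4.95e-08). It was lower in Myh13+ cells, with 236, 275 and 191 CPM, against 379, 583 and 477 CPM (log2 fold change -0.95 ± 0.15, adjusted p = 1.73e-06). Calb2+ values were above the other groups within each library, and the Myh13+ value was the lowest in each library. With Th+ left out of the mean, Crh+ cells were lower at -0.42 (adjusted p = 0.037). Sv2b, a vesicle glycoprotein that glutamatergic neurons use, had 47.01, 37.8 and 31.97 CPM in Nos1+ cells and at most 8.47 CPM in any other group of a library. It had no UMI in Hpse+, Calb2+ and Th+ cells. Slc17a7, which marks glutamatergic cells, was at 0, 21.3 and 0 CPM in Nos1+ cells, and its part in the Sv2b level was not tested. Group levels of Sv2a were 1062 ± 224 in Hpse+, 1043 ± 38.3 in Calb2+, 1190.5 ± 64.99 in Pvalb+, 1127 ± 234 in Crh+, 894 ± 7.57 in Th+, 953 ± 197 in Nos1+ and 1177 ± 104 in Myh13+, with no call. Syn3 and Sv2c stayed at means of at most 10.2 and 5.48 CPM.

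The study asks how X94-type non-Martinotti cells differ from Martinotti cells, and Hpse+ and Calb2+ cells were compared directly for that reason. The contrast covers only a part of either type. In the GFP+ sort, 24 of 120 Hpse-positive barcodes had none of the other markers. The study also places some X94 cells outside its Hpse cluster, and does not treat Calb2 as a unique marker. In Hpse+ against Calb2+ cells, 3 members were higher, against a background of 1.72% of the genes tested, and 1 lower, against 1.59%. Hpse+ cells had more Syt6 (log2 fold change 3.08 ± 0.51, adjusted p = 2.59e-05), Cplx2 (log2 fold change 1.68 ± 0.14, adjusted p = 1.33e-13) and Cplx1 (log2 fold change 0.58 ± 0.14, adjusted p = 0.00577), and less Syt13 (log2 fold change -1.30 ± 0.25, adjusted p = 2.50e-04). Syt6 had 131, 97.9 and 102 CPM in Hpse+ cells and 29.6, 14.3 and 4.52 CPM in Calb2+ cells, and Cplx2 1417, 1638 and 1675 CPM in Hpse+ cells and 425, 537 and 510.4 CPM in Calb2+ cells. Cplx1 had 1441, 1344 and 1287 CPM in Hpse+ and 859.5, 912 and 921 CPM in Calb2+ cells, and Syt13 95.3, 116 and 65.4 CPM in Hpse+ and 237, 211 and 194 CPM in Calb2+ cells. The 4 were picked by their call on these same values, so their lack of overlap between the groups is no further support. Without the second P45 library 2 members were called, since Syt6 and Cplx2 remained, while Cplx1 and Syt13 had adjusted p of 0.0604 and 0.0599, and Cplx1 was lost without the P97 library too (adjusted p = 0.112). The median log2 fold change of the members was 0.05, and that of all genes tested 0.00483.

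The X94 sort was compared with the whole SST population within the P97 mice. With 1 library per sort there was no replicate check and no test, so ratios carry exact intervals for counting error only. Of 33 members with at least 50 UMIs over both libraries, 3 were past 1.5-fold higher in the GFP+ sort, against 4.01% of 10158 genes, and 5 past 1.5-fold lower, against 9.09%, and the intervals of all 8 left out 1. Syt6 had 73.96 CPM in the GFP+ sort and 29.8 CPM in the tdTomato+ sort, a ratio of 2.48 (95% interval 2.01 to 3.06). Cplx2 had 911 CPM in the GFP+ sort and 589.6 CPM in the tdTomato+ sort, a ratio of 1.54 (95% interval 1.47 to 1.63). Both were also highest in Hpse+ cells among the marker groups. Lower were Syt5 (12.2 CPM in the GFP+ sort and 36.5 CPM in the tdTomato+ sort, ratio 0.333, 95% interval 0.2303 to 0.471), Rab3c (191 CPM in the GFP+ sort and 414 CPM in the tdTomato+ sort, ratio 0.463, 95% interval 0.422 to 0.506), Stx1a (19.2 CPM in the GFP+ sort and 40.2 CPM in the tdTomato+ sort, ratio 0.477, 95% interval 0.353 to 0.636), Syt13 (91.9 CPM in the GFP+ sort and 192 CPM in the tdTomato+ sort, ratio 0.478, 95% interval 0.418 to 0.544) and Doc2b (10.96 CPM in the GFP+ sort and 16.4 CPM in the tdTomato+ sort, ratio 0.666, 95% interval 0.437 to 0.998). Syt5, Rab3c, Stx1a and Syt13 are the 4 members called lower in Hpse+ cells of the tdTomato+ libraries. The P97 tdTomato+ library entered both comparisons, so this match, and that of Syt6 and Cplx2, is no separate support. With at least 5000 UMIs per barcode Doc2b had a ratio of 0.681 (95% interval 0.441 to 1.03).

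Hpse-positive barcodes made up 56.9% of SST barcodes in the GFP+ sort and 13.8% in the tdTomato+ sort, and Pvalb-positive barcodes 73.5% and 45.2%. Median depths of SST barcodes were 15222 UMIs in the GFP+ sort and 7583 UMIs in the tdTomato+ sort. The part of depth in these shares, and of these shares in the differences between sorts, was not tested. Among Hpse-positive barcodes alone (120 in the GFP+ sort and 79 in the tdTomato+ sort), 30 members had at least 50 UMIs, and 2 were past 1.5-fold higher in the GFP+ sort, against 390 of 7741 genes, with none past it lower, against 323. These were Syt2, with 49.2 CPM in the GFP+ sort and 27.95 CPM in the tdTomato+ sort, a ratio of 1.76 (95% interval 1.14 to 2.82), and Rims2, with 25.6 CPM in the GFP+ sort and 16.1 CPM in the tdTomato+ sort, a ratio of 1.59 (95% interval 0.881 to 3.03) that does not leave out 1. Sv2b had 25 UMIs in the GFP+ sort and 0 UMIs in the tdTomato+ sort, under that minimum. Syt6 had 96.5 CPM in the GFP+ sort and 112 CPM in the tdTomato+ sort, a ratio of 0.863 (95% interval 0.678 to 1.105), and Cplx2 1186 CPM in the GFP+ sort and 1311 CPM in the tdTomato+ sort, a ratio of 0.905 (95% interval 0.845 to 0.9702). Syt13 and Stx1a had ratios of 0.9599 and 1.07 with intervals around 1, and Rab3c 0.673 (0.566 to 0.802). Sv2b stood past 1.5-fold in the GFP+ sort, at 11.6 CPM in the GFP+ sort and 6.903 CPM in the tdTomato+ sort, a ratio of 1.68 (95% interval 1.03 to 2.74). Without the SST barcodes that held a Slc17a7 UMI, which number 10 in the GFP+ sort and 7 in the tdTomato+ sort, Sv2b had 1.28 CPM in the GFP+ sort and 2.501 CPM in the tdTomato+ sort, so that its order turned round.

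**Figure D3:**
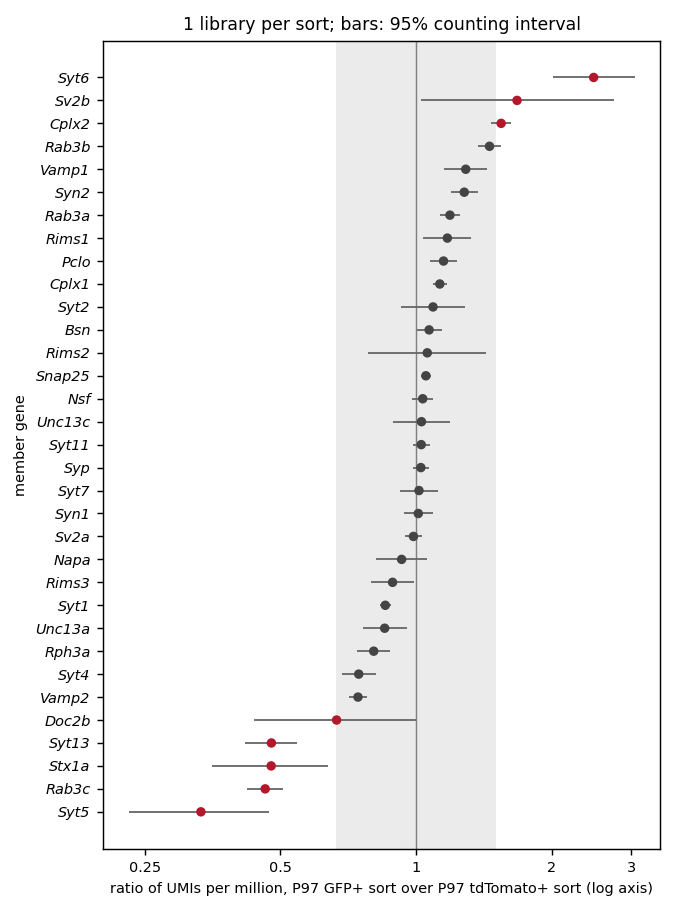
Ratio of levels in CPM in the P97 GFP+ sort over the P97 tdTomato+ sort for the 33 genes with at least 50 UMIs (log axis), with 95% counting intervals. The grey band spans 1.5-fold either way, and red points lie outside it with an interval that leaves out 1: Syt6 is highest at 2.48 and Syt5 lowest at 0.333.

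The sorts also held barcodes of glutamatergic neurons (at least 3 Slc17a7 UMIs and fewer than 3 Sst UMIs), 15 in the P97 and 66 and 23 in the P45 tdTomato+ libraries. Set against them, SST cells without a Slc17a7 UMI show which release genes differ between these inhibitory cells and excitatory cells of the same tissue. Of 36 members tested, 10 were higher, against a background of 9.62% of the genes tested, and 6 lower, against 10.4% (of 11498 genes). Among those higher in SST cells were Unc13c, with 93.2, 102 and 119.8 CPM, against 10.2, 4.1 and 5.44 CPM in Slc17a7+ barcodes (log2 fold change 4.11 ± 0.41, adjusted p = 6.62e-08), and Rab3b, with 468, 496 and 473 CPM, against 86.8, 10.3 and 27.2 CPM (log2 fold change 3.83 ± 0.33, adjusted p = 8.22e-09). Rims3 had 179, 202 and 176 CPM in SST cells, against 40.8, 30.8 and 10.9 CPM (log2 fold change 2.71 ± 0.28, adjusted p = 1.31e-07). Cplx1 had 1368, 1030.4 and 1117 CPM in SST cells, against 388, 174 and 261 CPM (log2 fold change 2.15 ± 0.17, adjusted p = 3.17e-09), while Cplx2 was not called. Rph3a had 312, 271 and 262 CPM in SST cells, against 86.8, 41 and 109 CPM (log2 fold change 1.96 ± 0.24, adjusted p = 1.41e-06), and Syt6 30.2, 29.3 and 23.1 CPM, against 5.11, 6.15 and 5.44 CPM (log2 fold change 2.25 ± 0.55, adjusted p = 0.00439), where the call was lost without the first P45 library (adjusted p = 0.0737). Vamp1, Sv2a, Rab3c and Pclo were higher too, by 1.85, 1.59, 0.88 and 0.87 on the log2 scale.

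Lower in SST cells was Sv2b, with 2.501, 7.71 and 3.06 CPM, against 479.9, 420.3 and 435 CPM in Slc17a7+ barcodes (log2 fold change -6.70 ± 0.27, adjusted p = 1.76e-14). Cplx3 had 0.834, 2.06 and 1.41 CPM in SST cells, against 112, 28.7 and 87.01 CPM (log2 fold change -5.56 ± 0.56, adjusted p = 8.59e-08), and Stx1a 40.6, 42.9 and 43.4 CPM, against 265, 148 and 261 CPM (log2 fold change -2.36 ± 0.21, adjusted p = 1.42e-08). The values of these 3 genes did not overlap, and since the same values gave their calls, this is no further support. Syt5 had 37.3, 54.2 and 50.9 CPM in SST cells, against 163, 105 and 119.6 CPM (log2 fold change -1.43 ± 0.24, adjusted p = 1.15e-04), and Unc13a 171, 137 and 132 CPM, against 194, 232 and 309.96 CPM (log2 fold change -0.76 ± 0.20, adjusted p = 0.006399), where the difference did not hold without the second P45 library (adjusted p = 0.23). Doc2b had 16.7, 11.8 and 24.5 CPM in SST cells, against 10.2, 59.5 and 38.1 CPM (log2 fold change -1.26 ± 0.44, adjusted p = 0.0492), which overlapped and was lost without either P45 library. Syt1 and Snap25 were not called, Syt1 with 2747 ± 227 CPM in SST cells and 2180.3 ± 402 CPM in Slc17a7+ barcodes, and Snap25 with 2888 ± 334 CPM in SST cells and 3083 ± 449.9 CPM in Slc17a7+ barcodes (SD, n = 3).

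**Figure D4:**
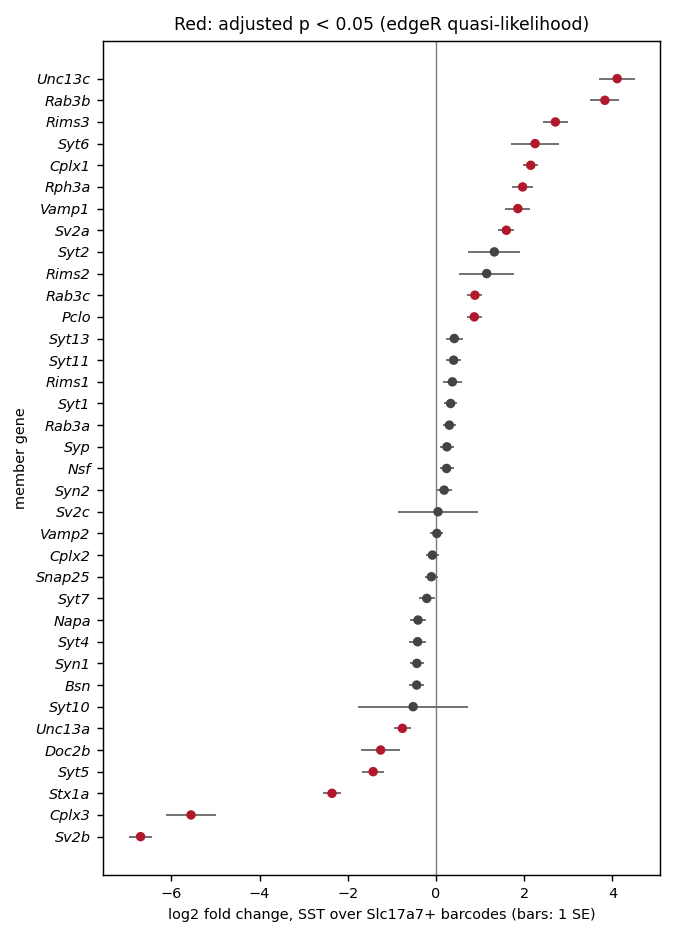
Fitted log2 fold changes of 36 tested genes in SST cells over Slc17a7+ barcodes with bars of 1 SE, sorted by size, with red points at an adjusted p under 0.05. Sv2b at -6.70 and Cplx3 at -5.56 lie at the low end, and Unc13c at 4.11 and Rab3b at 3.83 at the high end.

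Age was compared over the summed SST cells of the tdTomato+ libraries, 1 P97 library against 2 P45 libraries, so that the effects of age and of the batch cannot be told apart, and the fit has 1 residual degree of freedom. Of 36 members tested, 3 were higher, against a background of 1.41% of the genes tested, and 0 lower, against 0.372% of 12108 genes. The median log2 fold change was -0.14 over the members and -0.00192 over all genes tested. Syt2 had 72.3 CPM in the P97 library, against 17.1 and 14.4 CPM in the P45 libraries (log2 fold change 2.19 ± 0.18, adjusted p = 4.18e-04). Bsn (Bassoon, chr9:108096022-108190384, minus strand), which organises the active zone, had 467 CPM in the P97 library, against 180.1 and 203 CPM in the P45 libraries (log2 fold change 1.27 ± 0.12, adjusted p = 8.41e-04). Vamp1 had 144 CPM in the P97 library, against 82.03 and 87.3 CPM in the P45 libraries (log2 fold change 0.75 ± 0.12, adjusted p = 0.0145), and DESeq2 did not call it (adjusted p = 0.222).

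Syt2 and Vamp1 are highest in Pvalb+ cells. The share of SST barcodes with a Pvalb UMI was 45.2% in the P97 library, against 25.3% and 30.7% in the P45 libraries. Median depths of these SST barcodes were 7583 UMIs, against 5157.5 and 6155.5 UMIs. The part of depth in this share, and of this share in the age differences, was not tested. Within Pvalb+ cells Syt2 had 168 CPM in the P97 library, against 58.8 and 34.3 CPM in the P45 libraries, and Vamp1 228 CPM, against 113 and 169.8 CPM. Bsn was higher at P97 in all 6 marker groups that the libraries share, from 407 to 607 CPM in the P97 library, against 130.002 to 262 CPM in the P45 libraries. These groups are parts of the summed cells that gave the Bsn call, so they are no further support. Group levels of Bsn over the 3 libraries were 353 ± 221 in Hpse+, 325 ± 166 in Calb2+, 296 ± 122 in Pvalb+, 289 ± 162 in Crh+, 129 ± 33.9 in Th+, 255 ± 143 in Nos1+ and 248 ± 139 in Myh13+. The same direction was seen outside SST cells, with 786 CPM in Slc17a7+ barcodes of the P97 library, against 197 and 261 CPM in the P45 libraries. Gad2, which is no release gene, had 2201 CPM in the P97 library, against 989 and 969.5 CPM in the P45 libraries. The part that the batch had in these differences was not tested.

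**Figure D5:**
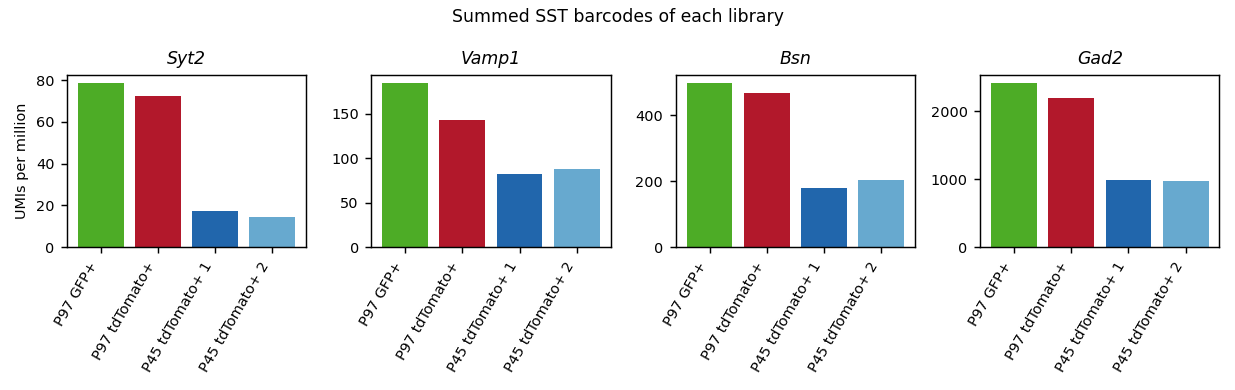
Levels of Syt2, Vamp1, Bsn and Gad2 in CPM over the summed SST barcodes of each library (bars from 0). Both P97 libraries stand above both P45 libraries in each panel, as for Syt2 at 72.3 CPM in the P97 tdTomato+ library, set against 17.1 and 14.4 CPM at P45.

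A second list of 55 release genes, with further SNARE proteins, synaptogyrins, liprins, endocytic and Munc18-binding proteins, had 40 members tested among the marker groups. Calls were 2 higher and 1 lower in Hpse+ cells, against 4.29% and 2.26% of all genes, 2 higher and 0 lower in Calb2+ cells, against 3.16% and 1.34% of all genes, 7 higher and 4 lower in Pvalb+ cells, against 7.16% and 3.88% of all genes, and 3 higher and 1 lower in Crh+ cells, against 4.08% and 1.75% of all genes. There were 1 higher and 5 lower in Th+ cells, against 4.26% and 3.55% of all genes, 5 higher and 0 lower in Nos1+ cells, against 4.76% and 0.936% of all genes, and 1 higher and 1 lower in Myh13+ cells, against 5.39% and 3.29% of all genes. Th+ cells had low Synpr, a synaptophysin relative, with 91.5 and 152 CPM (log2 fold change -2.45 ± 0.29, adjusted p = 1.28e-09). They also had low Sh3gl2 (endophilin A1, 39.2 and 45.7 CPM, log2 fold change -2.04 ± 0.46, adjusted p = 0.00123), Dnm1 (dynamin 1, 392 and 213 CPM, log2 fold change -1.06 ± 0.23, adjusted p = 6.88e-04), Stxbp5 (tomosyn, 26.1 and 30.5 CPM, log2 fold change -1.95 ± 0.54, adjusted p = 0.0125) and Stxbp6 (amisyn, 105 and 107 CPM, log2 fold change -1.56 ± 0.33, adjusted p = 6.50e-04). Endophilin and dynamin both act in vesicle endocytosis. Without 1 of the P45 libraries Th+ is a single sum, so none of these 5 calls could be checked by leaving out a library. Without the second P45 library Sh3gl2, Dnm1, Stxbp5 and Stxbp6 then differed by -2.10, -0.66, -2.01 and -1.47. Without the first, Sh3gl2 and Stxbp5 differed by -2.02 and -1.93.

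Stxbp5, which competes with synaptobrevin for the plasma membrane SNAREs, was higher in Crh+ cells, with 226, 229.8 and 256 CPM (log2 fold change 1.56 ± 0.17, adjusted p = 2.25e-10), as was the calcium sensor Doc2a, with 44.3, 39.6 and 93.7 CPM (log2 fold change 1.19 ± 0.31, adjusted p = 0.00816). Doc2a was lower in Pvalb+ cells, with 8.47, 20.98 and 20.3 CPM (log2 fold change -1.14 ± 0.30, adjusted p = 0.00529). Lin7a, a scaffold of presynaptic and postsynaptic membranes, was higher in Myh13+ cells, with 64.2, 85.7 and 77.4 CPM (log2 fold change 2.77 ± 0.44, adjusted p = 2.69e-06), and in Pvalb+ cells, with 37.7, 46.2 and 52.97 CPM (log2 fold change 1.93 ± 0.40, adjusted p = 3.38e-04), and Th+ cells had no UMI of it. Without the second P45 library Doc2a was not called in Crh+ (adjusted p = 0.577) or Pvalb+ cells (adjusted p = 0.0824), nor Lin7a in Pvalb+ cells (adjusted p = 0.0531), and Doc2a in Pvalb+ cells was lost without the P97 library too (adjusted p = 0.0921). Of 53 tested against Slc17a7+ barcodes, 10 were higher in SST cells, against 9.62% of all genes tested, and 13 lower, against 10.4%. Past a log2 difference of 1, Rab27a (3.52), Stxbp6 (2.62), Synpr (1.92), Ppfia4 (1.59), Rab27b (1.58), Cadps (1.29), Rims4 (1.24) and Syngr3 (1.01) were higher. Cadps2 (-5.90), Syt17 (-2.86), Unc13b (-2.17), Lin7a (-1.82), Rimbp2 (-1.28), Lin7b (-1.25), Sh3gl2 (-1.06), Erc2 (-1.03) and Sypl (-1.004) were lower. Sypl was lost without any 1 library, Rab27a without the first or the second P45 library (adjusted p = 0.0615 and 0.0771), and Rims4 without the first (adjusted p = 0.0949). The dense-core vesicle priming factors Cadps and Cadps2 ran in opposite directions.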

How the data were processed

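Single cells sorted from the cortex of 3 pools of mice, 1 of them sorted 2 ways, were captured as 4 libraries with 10x Chromium 3' chemistry. The deposited values are UMI counts per gene and barcode, which the authors made with Cell Ranger 2.0.0 on mouse GRCm38. Here, barcodes with at least 2000 UMIs and at least 3 Sst UMIs were kept. No doublet caller was run, and barcodes with UMIs of several of the 7 marker genes were left out of the marker groups. Counts were summed per library and group, and sums of fewer than 5 barcodes were dropped.

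All sums of the marker groups, and of barcodes with no marker, entered 1 fit of edgeR 4.0.16 (R 4.3.3), with TMM scaling, a filter on low counts, the quasi-likelihood test and Benjamini-Hochberg adjustment over all genes tested. Library was a block, since groups of 1 library come from the same mice, so the pairing is by design. The standard error is the size of the log2 fold change over the root of F. DESeq2 1.42.0 was an alternative, and GFP+ and tdTomato+ sorts were compared by ratios of counts with 95% intervals from Python 3.11.15 and scipy 1.17.1. Intervals and limits for a count of 0 (3 UMIs) cover counting error only. The fits were tested on simulated data.

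In each comparison up to 6 members per direction with an adjusted p under 0.05 were named with every library's value, and those past a log2 difference of 1 got all group levels. Genes of the second list were named past 1. The members and lists were chosen with earlier results of these data known. Gene positions come from GENCODE vM21, which held all 38 members, none with an exon overlap on the same strand. The P45 libraries differed beyond sampling noise (chi-square per degree of freedom 5.54 over 10189 genes). Results that need some of the genes are not reported here.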

Additional observations from a re-analysis of the deposited data

Results flagged for a closer look

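The level of Syt1 in Nos1+ cells relative to the other groups without Th+ had opposite signs in the 2 ages, by small amounts. The SD of the Nos1+ values over the 3 libraries was 292 CPM. The P97 library had 2621 CPM in Nos1+ cells and 2661 CPM in the other groups, a difference of -40.1 CPM, while the P45 libraries had 3077 and 3165 CPM in Nos1+ cells and 3011 and 3083 CPM in the other groups. Syt2 in Myh13+ cells had 16.1 CPM, against 43.8 CPM in the other groups of the P97 library, a difference of -27.7 CPM. In the P45 libraries it had 55.1 and 10.3 CPM in Myh13+ cells and 13.4 and 7.77 CPM in the other groups. These Myh13+ levels rest on few UMIs, in sums of 186806, 163346 and 193920 UMIs. The other groups at P97 hold Pvalb+ cells at 168 CPM. With 1 library at P97, neither difference between ages was tested, and no reversal with age can be read from them.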

How the results depend on the processing

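Of 789 repeats of the 76 member results called, 661 kept their direction and their call, 126 kept the direction only and 2 changed sign, and 38 of the 76 results kept their call throughout. Syt2 in Myh13+ cells changed sign over all positive barcodes (-0.22), and Syt1 in Myh13+ cells with Th+ left out of the mean (-0.033). Over all positive barcodes against all other SST barcodes, the members called numbered 16 in Hpse+ (10 in the report), 6 in Calb2+ (3), 14 in Pvalb+ (9), 9 in Crh+ (3) and 6 in Th+ cells (10), against 1251 of 11057, 577 of 10881, 1672 of 11150, 568 of 11185 and 366 of 10638 genes. With at least 5000 UMIs per barcode 6 were called in Hpse+ cells, against 5.21% of all genes tested. With at least 2 marker UMIs, 6 were called in Crh+ cells and 7 in Hpse+ against Calb2+ cells (4), where 6.56% and 5.93% of all genes were. Leaving Th+ out of the mean gave 10 in Crh+ cells, against 6.78%. Without the filter on low counts, 5 were called between ages (3), against 4.28%. Among Hpse-positive barcodes 1 was past 1.5-fold between sorts with an interval that left out 1 (8). Of 7741 genes 390 were past it higher there and 323 lower, whatever their interval. For the other settings, counts stayed within 1.5 times, except without the replicate block or with a library left out, given next. The Th+ alternative and 1 other, not described here, were chosen after seeing the data.

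Leaving out 1 library at a time gave 6 to 7 members in Hpse+ cells, against 3.74% to 4.91% of all genes tested. It gave 2 to 3 in Calb2+ (2.29% to 3.73%), 6 to 8 in Pvalb+ (6.15% to 7.56%) and 2 to 3 in Crh+ cells (3.08% to 4.38%). Counts were 5 to 6 in Nos1+ (3.11% to 5.17%) and 6 to 9 in Myh13+ cells (5.06% to 6.24%). They were 2 to 5 in Hpse+ against Calb2+ (1.13% to 2.54%) and 15 to 20 in SST against Slc17a7+ barcodes (12.7% to 22.1%). For Th+ no such count is given, since no P97 barcode is Th+ and leaving out a P45 library leaves 1 Th+ sum. Between ages, leaving out a library leaves no residual degree of freedom, so no count can be given. Without the replicate block, which pairs groups of 1 library, 7 members were called in Myh13+ (12), 8 in Hpse+ and 6 in Pvalb+ cells. Of all genes tested, 5.5%, 4.77% and 5.87% were called there. In Nos1+ cells 4 were called and in Hpse+ against Calb2+ cells 3, where 3.52% and 1.81% of all genes were. The counts of the other group comparisons were the same. No paired analysis was possible between ages because the libraries came from different mice. DESeq2's scaling moved the median of all genes by at most 0.03 on the log2 scale. The 23 Th+ barcodes limit what can be seen there, and 1 P97 library limits every statement on age.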
